A study of Rattus norvegicus with 6 samples.

Results

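The genes of the interferon response and of antigen presentation were followed in kidney cortex from male rats of the Sprague-Dawley (Crl:CD(SD)) stock. A list of 37 genes was read by gene symbol: transcription factors of interferon signalling, antiviral effectors, cytosolic RNA sensors, peptide loading of class I molecules, and class II molecules with their regulators. For each symbol the brightest named probe was taken and was kept if at least 3 of the 6 arrays had it well above background. Of the 37 genes, 36 had a named probe and 34 were measured, among 27506 genes tested. Ddx58 had no named probe, the only probe of RT1-Ba was above background on 0 arrays, and that of RT1-DOa on 2 arrays. The study gave potassium bromate, an oxidising salt that injures the kidney, at 100 mg/kg/day over 4 weeks to 3 rats, and water for the same time to the other 3. All 6 animals were 5 weeks old when bought, came from an outbred stock, and ate the same basal diet. One single-colour array was hybridised per animal.

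Interferons bind receptors at the cell surface, whose kinases activate STAT proteins. Type I interferon drives a complex that holds STAT2 and IRF9 onto the interferon-stimulated response element (ISRE), and interferon gamma acts through the gamma-activated site (GAS). The genes reached this way encode antiviral enzymes, the transporter and proteasome subunits that prepare peptides for class I molecules, and, through the coactivator CIITA, the class II molecules and the invariant chain. Class II genes carry X and Y boxes in front of their start and are mainly expressed by antigen-presenting cells, and by injured tubule cells in the kidney.

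The promoters of the 5 genes that passed the test are printed first, with that of Irf7, an ISRE gene that did not pass, beside them. The windows run from 250 bases before to 50 after the start, on the strand of the gene, from RefSeq on build GRCr8. Capitals mark a GAS core (TTCNNNGAA) in Irf1, the ISRE core (GAAA, any 2 bases, GAAA, on the opposite strand in Irf7) in Isg20, Ifih1, Tap2 and Irf7, and a Y box core (GATTGG) in RT1-DMa. Their positions are chr10:38417685-38417984 for Irf1, chr1:142239809-142240108 for Isg20, chr3:67683919-67684218 for Ifih1, chr20:4652247-4652546 for Tap2, chr20:4712286-4712585 for RT1-DMa and chr1:205799974-205800273 for Irf7, with Ifih1, Tap2, RT1-DMa and Irf7 on the minus strand.
Irf1: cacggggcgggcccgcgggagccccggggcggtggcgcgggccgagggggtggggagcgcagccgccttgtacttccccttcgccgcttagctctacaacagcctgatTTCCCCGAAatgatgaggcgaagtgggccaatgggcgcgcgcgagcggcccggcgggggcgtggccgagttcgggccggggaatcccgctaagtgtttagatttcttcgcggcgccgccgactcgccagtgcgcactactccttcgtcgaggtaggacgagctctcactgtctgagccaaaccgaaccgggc
Isg20: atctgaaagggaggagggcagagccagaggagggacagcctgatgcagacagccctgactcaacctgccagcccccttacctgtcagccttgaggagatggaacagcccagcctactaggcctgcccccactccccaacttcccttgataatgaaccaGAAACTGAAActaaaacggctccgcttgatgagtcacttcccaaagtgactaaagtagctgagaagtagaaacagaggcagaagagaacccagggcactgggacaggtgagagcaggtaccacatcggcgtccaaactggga
Ifih1: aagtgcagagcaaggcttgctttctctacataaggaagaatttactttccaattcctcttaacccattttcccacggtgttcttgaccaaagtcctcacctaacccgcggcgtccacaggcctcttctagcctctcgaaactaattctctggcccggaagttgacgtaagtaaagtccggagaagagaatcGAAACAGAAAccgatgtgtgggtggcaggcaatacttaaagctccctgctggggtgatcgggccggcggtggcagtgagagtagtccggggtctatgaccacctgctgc
Tap2: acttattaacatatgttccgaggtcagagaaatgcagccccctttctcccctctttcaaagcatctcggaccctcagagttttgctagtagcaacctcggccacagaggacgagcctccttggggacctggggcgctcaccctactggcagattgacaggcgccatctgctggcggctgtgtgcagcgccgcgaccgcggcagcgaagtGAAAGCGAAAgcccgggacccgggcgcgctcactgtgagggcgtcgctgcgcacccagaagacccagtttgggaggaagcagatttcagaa
RT1-DMa: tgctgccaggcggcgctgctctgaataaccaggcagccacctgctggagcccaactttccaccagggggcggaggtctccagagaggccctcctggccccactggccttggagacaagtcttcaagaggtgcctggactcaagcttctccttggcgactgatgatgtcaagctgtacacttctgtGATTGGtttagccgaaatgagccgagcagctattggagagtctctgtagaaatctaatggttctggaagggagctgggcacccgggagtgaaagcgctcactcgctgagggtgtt
Irf7: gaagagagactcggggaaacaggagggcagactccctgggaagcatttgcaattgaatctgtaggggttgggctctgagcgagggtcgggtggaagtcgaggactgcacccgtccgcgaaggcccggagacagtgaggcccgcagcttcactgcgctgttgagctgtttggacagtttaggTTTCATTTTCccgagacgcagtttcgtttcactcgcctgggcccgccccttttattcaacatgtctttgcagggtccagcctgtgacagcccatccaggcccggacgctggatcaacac
The marked core begins at position -142 from the start in Irf1, -92 in Isg20, -59 in Ifih1, -41 in Tap2, -65 in RT1-DMa and -69 in Irf7.

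A promoter was at hand for 29 of the 37 genes, and both strands were searched. The ISRE core stood in 13 of these 29 promoters (44.8%), against 1312 of all 33469 promoters (3.92%). It was found in 8 of 11 antiviral effectors and in 3 of 3 class I loading genes, and in 0 of 8 class II genes. The Y box core stood in 10 of 29 (34.5%, all promoters 14.8%), among them 7 of 8 class II promoters, and the X box core (CCTAGCAAC) stood in 2, RT1-Da and RT1-DOb. The GAS core stood in 5 of 29 (17.2%, all promoters 8.87%), among them Irf1, Irf8 and Irf9. Of the 5 genes that passed the test 3 held an ISRE core, as did 10 of 22 that were measured and did not pass. These matches describe letters in a window and are not tests of binding. Antigen presentation genes also lie side by side: on chromosome 20 the RefSeq order of protein-coding genes runs RT1-Db1, RT1-Ba, RT1-Bb, RT1-DOb, Tap2, Psmb8, Tap1, Psmb9, RT1-DMb and RT1-DMa.

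The comparison asked which genes of this pathway differed in level after bromate. Of the 34 measured genes 5 were higher in bromate cortex, namely Irf1, Isg20, Ifih1, Tap2 and RT1-DMa, 0 were lower and 29 did not pass (limma with Benjamini-Hochberg adjustment over all 27506 genes, threshold 0.05). That is 14.7% of them higher, against 6.87% higher and 7.61% lower among all genes tested. At an unadjusted p under 0.05 the same test has 9 of the 34 higher and 2 lower, Mx2 and Cd74. Over all 27506 genes that threshold has 4191 higher and 4849 lower. The differences were positive for 15 genes and negative for 19, with a median of -0.03 on the log2 scale, beside -0.02 over all genes. The groups did not overlap for 12 of 34 genes (35.3%), beside 41.1% of all genes tested. The 5 genes that passed spread over all 5 roles, 1 in each. Mx1, Mx2, Oas1a, Isg15, Ifit2, Ifit3, Rsad2 and Usp18, all textbook type I interferon targets, did not pass and had negative differences. With 1 array left out, the differences reached 0.24 for Isg15, 0.034 for Ifit2, 0.16 for Ifit3 and 0.33 for Rsad2. Those of Mx1, Mx2, Oas1a and Usp18 stayed negative whichever array was left out. Other genes that did not pass had positive differences, among them Gbp2 (0.64), Oasl (0.64), Trim21 (0.67), Irf9 (0.47) and Stat2 (0.30). The RNA is from whole cortex, so fewer cells of a type and less RNA per cell cannot be told apart. Among the 5 arrays on the one slide that held both groups, 3 of the 34 genes were higher (Irf1, Tap2 and Isg20) and 0 lower, beside 5.44% of all genes higher and 6.67% lower.

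**Figure D1:**
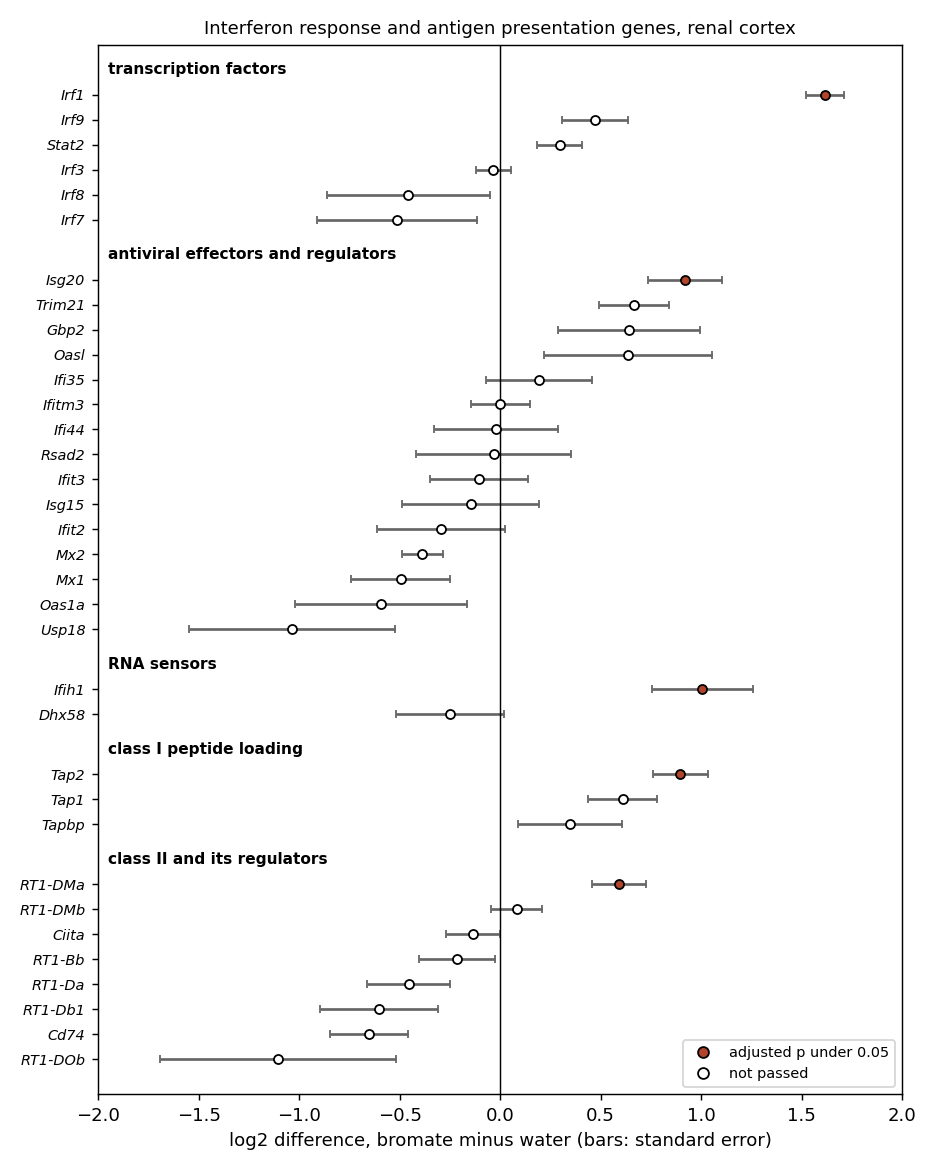
Log2 difference, bromate minus water, of the 34 measured genes by role, with bars for the standard error of the limma fit (n = 3 arrays per group) and filled points for adjusted p under 0.05. Irf1 stands furthest right at 1.62, class I loading genes all lie above 0, and 6 of the 8 class II genes lie below 0.

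Every level is given on the log2 scale after subtraction of the array's own 75th percentile. Differences are means of bromate arrays minus means of water arrays, followed by ± the standard error of the fit (n = 3 arrays per group). A probe's level can be read across arrays but not against another probe's.

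Among the transcription factors, Irf1, which activates class I loading and class II regulator genes, had 3.57, 3.79 and 3.76 on the bromate arrays and 2.15, 2.02 and 2.11 on the water arrays. All bromate values lay above all water values, with little spread in either group. The difference was 1.62 ± 0.09, 3.07-fold higher (adjusted p = 0.001252, limma). A second Irf1 probe was higher by 1.55 ± 0.13 (adjusted p = 0.003074, limma over 37781 single probes).

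The other factors did not pass. Irf9 and Stat2, which belong to the ISRE-binding complex, had differences of 0.47 ± 0.17 and 0.30 ± 0.11 (adjusted p = 0.1103 and 0.1286, limma), and in both the groups did not overlap. Both passed once bromate replicate 1 was left out, at adjusted p = 0.02396 and 0.04827 by limma. Irf3, the factor that starts interferon transcription and has the brightest probe among the factors, had 5.16, 5.16 and 4.98 on bromate arrays and 5.13, 5.11 and 5.15 on water arrays. Its difference was -0.03 ± 0.09, and the groups overlapped. Irf7, the factor that amplifies type I interferon, had 0.00058, 1.22 and 1.52 on bromate arrays and 1.20, 1.59 and 1.49 on water arrays, so that bromate replicate 1 lay below all the others. Irf8, a factor of macrophages and dendritic cells, differed by -0.46 ± 0.41 and was above background on 2 bromate and 3 water arrays. Its difference was -0.0019 without bromate replicate 1 and -0.12 with normexp background correction.

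Of the 15 antiviral effectors and regulators 1 rose. Isg20, an interferon-induced exonuclease that degrades RNA, had -0.12, 0.47 and 0.16 on bromate arrays and -0.51, -0.85 and -0.88 on water arrays. All bromate values were above all water values, and the difference was 0.92 ± 0.18, 1.89-fold (adjusted p = 0.02893, limma). Leaving out bromate replicate 2 or 3, or water replicate 2 or 3, took it to adjusted p between 0.07361 and 0.0971 with differences of 0.77 to 0.92.

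The well-known interferon-stimulated antiviral genes had differences on both sides of 0, with a median of -0.03 over the 15. Usp18, the protease that removes ISG15 from proteins and restrains type I interferon signalling, had -3.93, -2.31 and -1.93 on bromate arrays and -1.84, -1.66 and -1.56 on water arrays. Its bromate values all lay below its water values, but bromate replicate 1 was far below the other two, and the difference of -1.04 ± 0.51 did not pass (adjusted p = 0.2195, limma). Without bromate replicate 1 the Usp18 difference was -0.43 (adjusted p = 0.1557, limma). Mx2, a dynamin-like antiviral GTPase with the brightest effector probe, had 5.79, 5.72 and 5.997 on bromate arrays and 6.14, 6.24 and 6.28 on water arrays. The groups did not overlap, and the difference of -0.39 ± 0.10 lay just outside the threshold (adjusted p = 0.05789, limma). Mx1, its relative, differed by -0.49 ± 0.25 (adjusted p = 0.2223), while its second and dimmer probe, read one by one, was lower by 0.71 in bromate cortex (log2 difference -0.71, adjusted p = 0.02738).

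The remaining effectors did not pass, and their differences ran from -0.59 for Oas1a, an oligoadenylate synthetase that activates RNase L, to 0.67 for Trim21, a ubiquitin ligase and antibody receptor of the cytosol. Oas1a was at -0.14 without bromate replicate 1, and Trim21 at 0.36 with normexp background correction. Trim21 had -3.65, -3.91 and -4.13 on bromate arrays and -4.46, -4.40 and -4.83 on water arrays, without overlap (adjusted p = 0.054, limma), and was above background on 3 bromate arrays and 1 water array. Gbp2, a guanylate-binding protein that attacks vacuoles holding microbes, had 1.09, 2.34 and 2.35 on bromate arrays and 1.25, 1.36 and 1.24 on water arrays. Bromate replicates 2 and 3 stood above every water array, and replicate 1 below them all. Without that array Gbp2 was higher by 1.06 (adjusted p = 0.009606, limma), against 0.64 ± 0.35 with it (adjusted p = 0.2615). Isg15, the ubiquitin-like modifier, differed by -0.15 ± 0.34, Ifitm3, which blocks viral entry, by 0.0010 ± 0.15, Rsad2, which encodes viperin, by -0.03 ± 0.38, and Ifi44 by -0.02 ± 0.31. Ifit2 and Ifit3, which bind viral RNA, differed by -0.29 ± 0.32 and -0.11 ± 0.24, Ifi35 by 0.19 ± 0.26 and Oasl by 0.64 ± 0.42. Oasl was at 0.33 without bromate replicate 3 and at 0.24 with normexp background correction.

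The 3 bromate animals differed among themselves on these genes. Bromate replicate 1 was the lowest of the 6 arrays for 9 of the 15 effectors (60%) and for 15 of all 34 genes (44.1%), beside 19.4% of all genes tested. The median SD of the effectors was 0.57 over the bromate arrays and 0.14 over the water arrays, while over all genes tested it was 0.14 in bromate and 0.15 in water. Oas1a, for example, had -0.25, 1.01 and 1.20 on bromate arrays and 0.77, 1.44 and 1.52 on water arrays. On average over the 15 effectors, the levels centred on each gene's 6-array mean were -0.50, 0.18 and 0.31 on bromate arrays and -0.15, 0.13 and 0.03 on water arrays. Bromate replicate 1 also had the lowest share of probes above background (57.9%, against 59.3% to 63.1% on the others). Some markers of other cells stood apart there too: the mean centred level of 13 T and NK cell markers was -0.51 there and between -0.13 and 0.24 on the other arrays, and that of 5 dendritic cell markers was -0.60 there and between -0.08 and 0.30 on the other arrays. The 3 B cell markers averaged -0.36 there and between -0.19 and 0.47 on the other arrays. For the 8 pan-leukocyte markers the mean was -0.28 there and between -0.19 and 0.30 on the other arrays. The macrophage and granulocyte lists were not at their lowest there. The 17 macrophage markers averaged -0.15 there, 0.50 and 0.35 on the other bromate arrays and -0.42, -0.17 and -0.11 on water arrays. The 4 granulocyte markers averaged 0.39 there, -0.02 and 0.60 on the other bromate arrays and -0.37 to -0.23 on water arrays. Their part in the effector values was not tested. Without this array 8 of the 34 genes were higher and 0 lower, while 4.67% of all genes were higher and 4.02% lower. The 8 were Irf1, Irf9, Stat2, Isg20, Gbp2, Ifih1, Tap1 and Tap2.

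**Figure D2:**
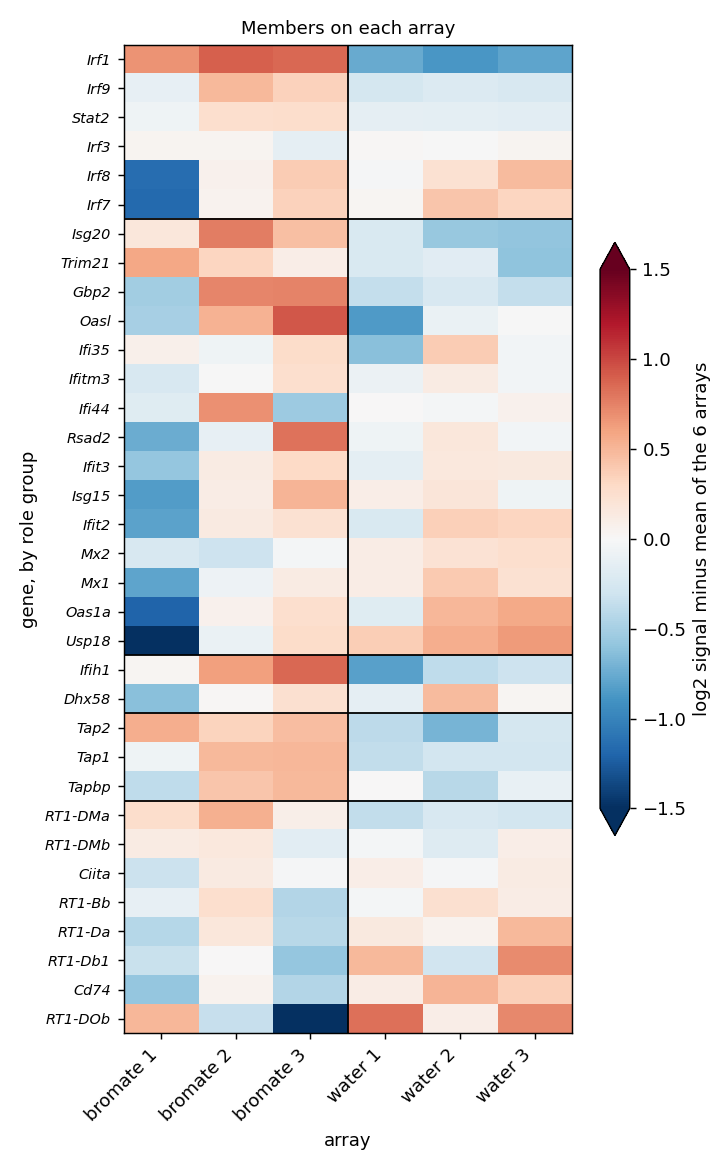
Log2 signal of each of the 34 genes on each array, minus the gene's mean over the 6 arrays (colour, clipped at 1.5 either way), with genes in role groups split by black lines. The first column, bromate replicate 1, is blue for most effectors, while Irf1 and Tap2 are red on all 3 bromate arrays and blue on all 3 water arrays.

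Of the RNA sensors, Ifih1, which recognises long double-stranded RNA in the cytosol, had -3.02, -2.44 and -2.19 on bromate arrays and -3.87, -3.43 and -3.37 on water arrays. The groups did not overlap, and the difference of 1.01 ± 0.25, 2.01-fold, passed narrowly (adjusted p = 0.04956, limma). It did not pass with any array other than bromate replicate 1 left out (adjusted p between 0.09511 and 0.1374, differences of 0.83 to 1.101), and with normexp background correction its difference was 0.48 (adjusted p = 0.07935, limma). Dhx58, a helicase that tunes the other sensors and has the brightest sensor probe, had -2.71, -2.07 and -1.84 on bromate arrays and -2.21, -1.61 and -2.05 on water arrays. Those groups overlapped, and the difference was -0.25 ± 0.27.

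The class I loading genes all had positive differences, with a median of 0.61, and 1 of the 3 passed. Tap2, a subunit of the transporter that brings peptides into the endoplasmic reticulum, had 2.05, 1.83 and 1.96 on bromate arrays and 1.101, 0.80 and 1.24 on water arrays. All bromate values were higher, by 0.90 ± 0.14 or 1.86-fold (adjusted p = 0.01473, limma), and a second Tap2 probe was higher by 0.72 (adjusted p = 0.02659). Without bromate replicate 3 the Tap2 difference was 0.89 (adjusted p = 0.05047). Tap1, the partner subunit, had -0.99, -0.43 and -0.42 on bromate arrays and -1.28, -1.19 and -1.19 on water arrays, without overlap. Its difference of 0.61 ± 0.17 was just outside the threshold (adjusted p = 0.0646), and inside it without bromate replicate 1 (0.80, adjusted p = 0.01417). Tapbp, which encodes tapasin and holds class I molecules at the transporter, differed by 0.35 ± 0.26 with overlap.

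**Figure D3:**
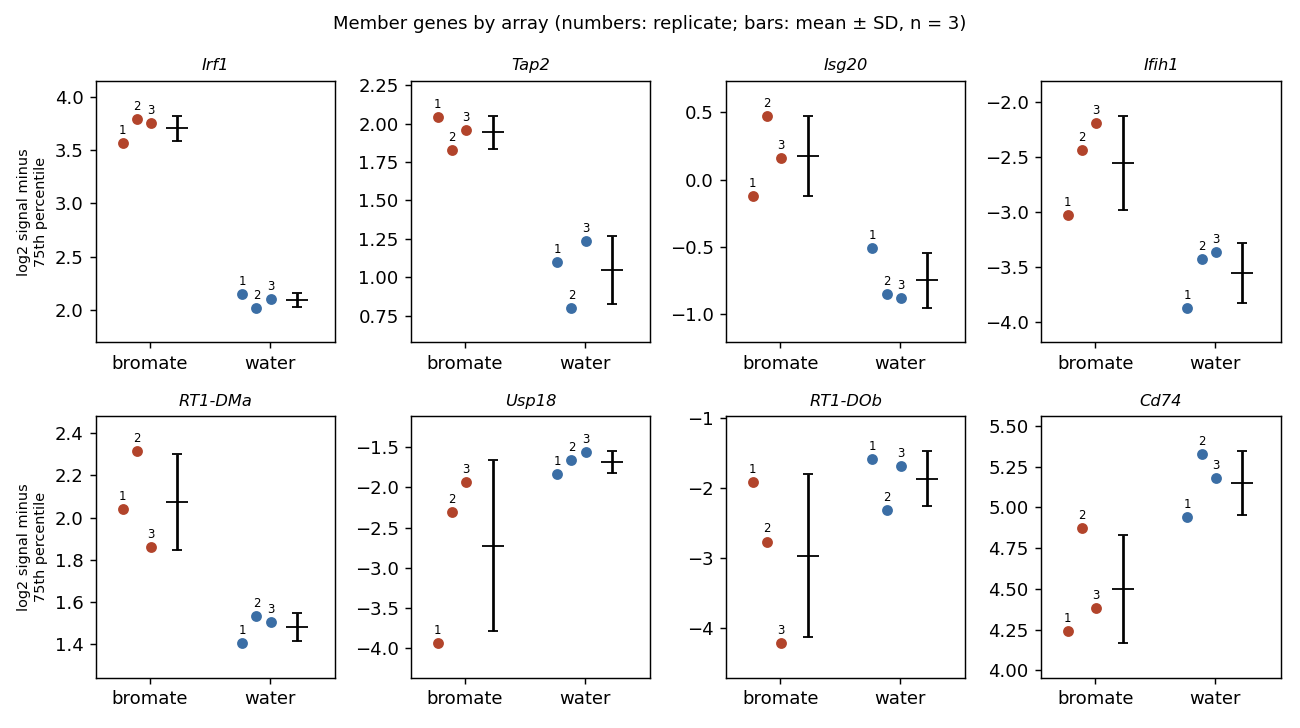
Log2 signal minus the array's 75th percentile for 8 genes on each array, bromate to the left of water, with numbers for the replicates and bars for mean ± SD (n = 3). The groups are apart with bromate higher in the panels of Irf1, Tap2, Isg20, Ifih1 and RT1-DMa. They are apart with bromate lower in those of Usp18 and Cd74. Usp18 on bromate replicate 1 and RT1-DOb on bromate replicate 3 lie far below the other arrays.

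Class II genes did not move as one. RT1-DMa, a chain of the molecule that exchanges peptides on class II, had 2.04, 2.32 and 1.86 on bromate arrays and 1.40, 1.53 and 1.51 on water arrays. Its bromate values all lay above its water values, by 0.59 ± 0.13 or 1.51-fold (adjusted p = 0.03769, limma), and its second probe was higher by 0.56 (adjusted p = 0.03171). It passed with bromate replicate 3 left out, and with any other array left out had an adjusted p between 0.07973 and 0.102 and differences of 0.47 to 0.62. RT1-DMb, the other chain, differed by 0.08 ± 0.13 with overlap.

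The other 6 genes of this group, among them the classical class II genes RT1-Da, RT1-Db1 and RT1-Bb, had negative differences, none of which passed. Cd74, the invariant chain that guides class II molecules through the cell and has the brightest probe of this group, had 4.24, 4.87 and 4.38 on bromate arrays and 4.94, 5.33 and 5.18 on water arrays. Every bromate value was below every water value, and the difference of -0.65 ± 0.19 had an adjusted p of 0.07639 (limma). RT1-Da differed by -0.45 ± 0.21, RT1-Db1 by -0.60 ± 0.29 and RT1-Bb by -0.21 ± 0.19, each with overlap. Ciita, the coactivator of class II transcription, differed by -0.14 ± 0.14. RT1-DOb, a chain of the molecule that holds RT1-DM back, had -1.92, -2.77 and -4.22 on bromate arrays and -1.59, -2.32 and -1.69 on water arrays. Its bromate values spread widely and overlapped the water values, and its difference of -1.104 ± 0.59 did not pass (adjusted p = 0.2486, limma). It was -0.48 without bromate replicate 3 and -0.56 with normexp background correction.

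Probes of the RT1 genes, the major histocompatibility complex of the rat, also differed between water animals. The following pattern was chosen after the values were seen. One probe of RT1-Bb was above background on water replicates 1 and 3 only, with 3.03 and 3.35 there, and stood at -7.10 on water replicate 2 and at -6.46, -6.81 and -6.60 on bromate arrays. The other RT1-Bb probes lay within 1.58 to 2.17 and 2.21 to 2.91 over all 6 arrays. The most variable RT1-Db1 probe had 1.65, 1.99 and 1.52 on bromate arrays and 3.49, 1.84 and 3.71 on water arrays, and another had 1.24, 1.57 and 1.00 on bromate arrays and 2.54, 1.48 and 2.84 on water arrays. RT1-CE3, a class I gene, had 0.63, 0.56 and 0.65 on bromate arrays and 1.89, 0.46 and 2.03 on water arrays, and RT1-CE16 had 2.71, 3.09 and 3.12 on bromate arrays and 4.02, 2.57 and 4.06 on water arrays. Water replicates 1 and 3, which sat on different slides, were the 2 highest arrays for 16 of the 55 RT1 probes that were above background on at least 3 arrays (29.1%), beside 11.7% of all probes so filtered. Since the pattern was seen first, this share is a description and no test. The RT1 genes are highly polymorphic in rats and near-identical copies may share a probe, and the genotypes of these outbred animals were not tested. The RT1-Db1 difference of -0.60 given above comes from a probe of this kind, with water replicates 1 and 3 the 2 highest arrays. The RT1-DOb probe behind the difference of -1.104 also had these as its 2 highest arrays. Its SD, however, was 0.39 over water and 1.17 over bromate arrays, with bromate replicate 3 the lowest at -4.22.

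**Figure D4:**
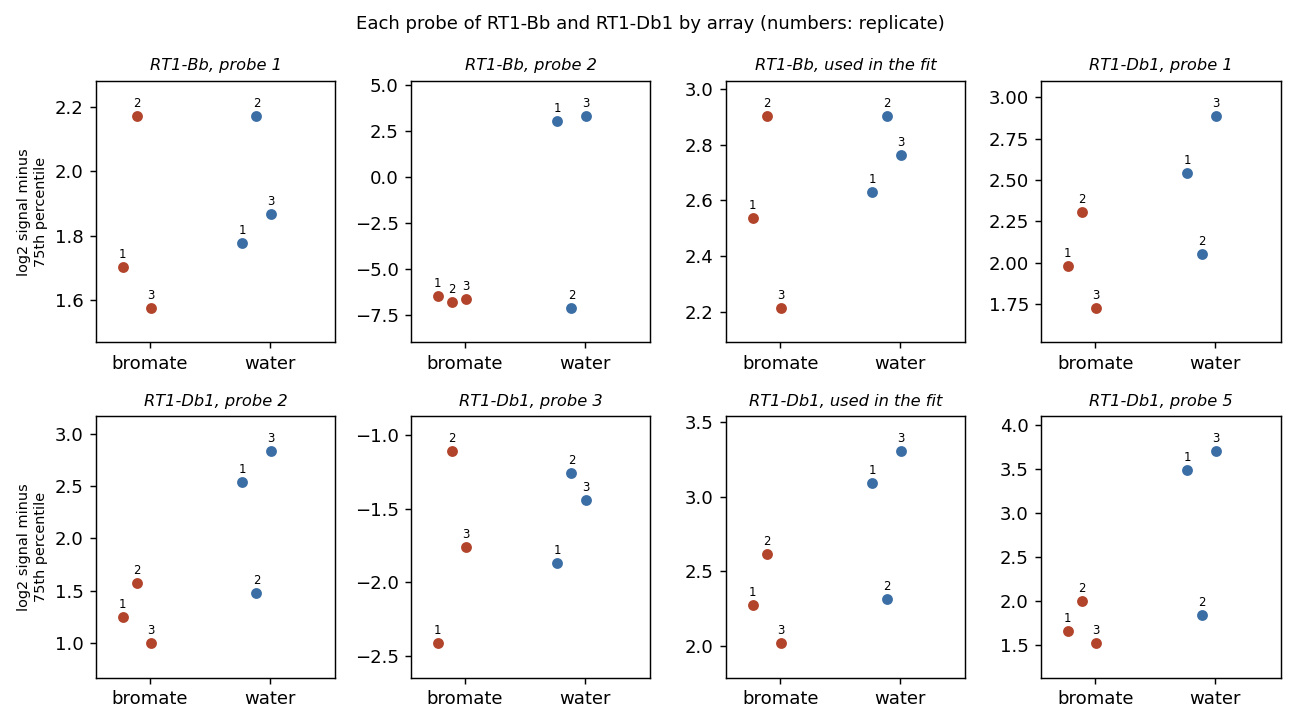
Log2 signal minus the array's 75th percentile for each of the 3 probes of RT1-Bb and the 5 of RT1-Db1, bromate to the left of water, with numbers for the replicates and an own scale in each panel. Water replicates 1 and 3 stand above the other 4 arrays in the second RT1-Bb panel and in 4 of the 5 RT1-Db1 panels.

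Beyond the brightest probes, 25 other probes of 20 of these genes were measured, of which 22 had the same sign as the probe used and 3 the opposite one, with differences of 0.03 and 0.01 for Ifi44 and 0.30 for Ifit2. Tested one by one, 4 of the 25 passed, those of Irf1, Tap2, RT1-DMa and Mx1 given above. Of all 37781 probes so tested, 2716 were higher and 2877 lower.

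The wider pathway was read in 5 further lists. Their counts, and those of the cell marker lists, are to be read against 6.87% higher and 7.61% lower over all 27506 genes. At an unadjusted p under 0.05 (limma), 4191 of all these genes were higher and 4849 lower. Of 9 measured interferon ligands, receptors and kinases, 1 was higher and 0 lower (3 higher at an unadjusted p under 0.05, limma). Ifngr2, a chain of the interferon gamma receptor, had 1.23, 1.58 and 1.53 on bromate arrays and 0.93, 0.95 and 0.63 on water arrays, higher by 0.61 ± 0.14 without overlap (adjusted p = 0.04048, limma). The interferon genes Ifna2, Ifna5, Ifnb1, Ifng and Ifnk were above background on 0 arrays, and Ifna4, above it on all 6, differed by -0.08 ± 0.15. Of 16 other nucleic acid sensors and adaptors 0 passed (3 higher and 2 lower at an unadjusted p under 0.05, limma), and the brightest, the adaptor gene Myd88, differed by 0.31 ± 0.09 (adjusted p = 0.06546).

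Among 39 other interferon-stimulated genes 8 were higher and 2 lower, to be read against 6.87% higher and 7.61% lower over all genes, as are the counts of the lists that follow. The 4 with the largest differences were the chemokine genes Cxcl10, Cxcl9 and Cxcl11, which attract T cells through one receptor, and Parp14, a mono-ADP-ribosyltransferase. Cxcl10 had 4.04, 2.41 and 2.65 on bromate arrays and 0.02, 0.12 and 0.12 on water arrays, a difference of 2.94 ± 0.42 or 7.70-fold (adjusted p = 0.01308, limma). Here bromate replicate 1 was the highest array. Cxcl11 was higher by 1.58 ± 0.22, 3.00-fold (adjusted p = 0.0114), and Parp14 by 1.48 ± 0.17, 2.79-fold (adjusted p = 0.006614). Cxcl9, 1 of the 2 counted as lower, ran the other way. It was above background on 0 bromate arrays and on all 3 water arrays, so it passed the filter through the water arrays alone. It was at least 3.32-fold lower in bromate cortex. That bound was set against the dimmest signal called above background on each bromate array, or the probe itself where that was brighter. The measured means were -5.02 in bromate and -3.01 in water (adjusted p = 0.007203, limma), the bromate values not being above background.

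Of 30 class I and immunoproteasome genes outside the 37, 3 were higher and 0 lower. Psmb10, a catalytic subunit of the immunoproteasome, had 3.88, 4.08 and 4.14 on bromate arrays and 2.68, 2.73 and 2.74 on water arrays. It was higher by 1.32 ± 0.10, 2.49-fold, without overlap (adjusted p = 0.002281, limma). Psme2, a subunit of the proteasome activator, was higher by 0.42 ± 0.08 (adjusted p = 0.02327) and RT1-M3-1, a nonclassical class I gene, by 0.93 ± 0.23 (adjusted p = 0.04952). Of 15 class II processing genes 2 were higher and 0 lower, the lysosomal enzyme genes Ctsl by 0.66 ± 0.12 (adjusted p = 0.02103) and Ifi30 by 0.32 ± 0.08 (adjusted p = 0.04931).

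**Figure D5:**
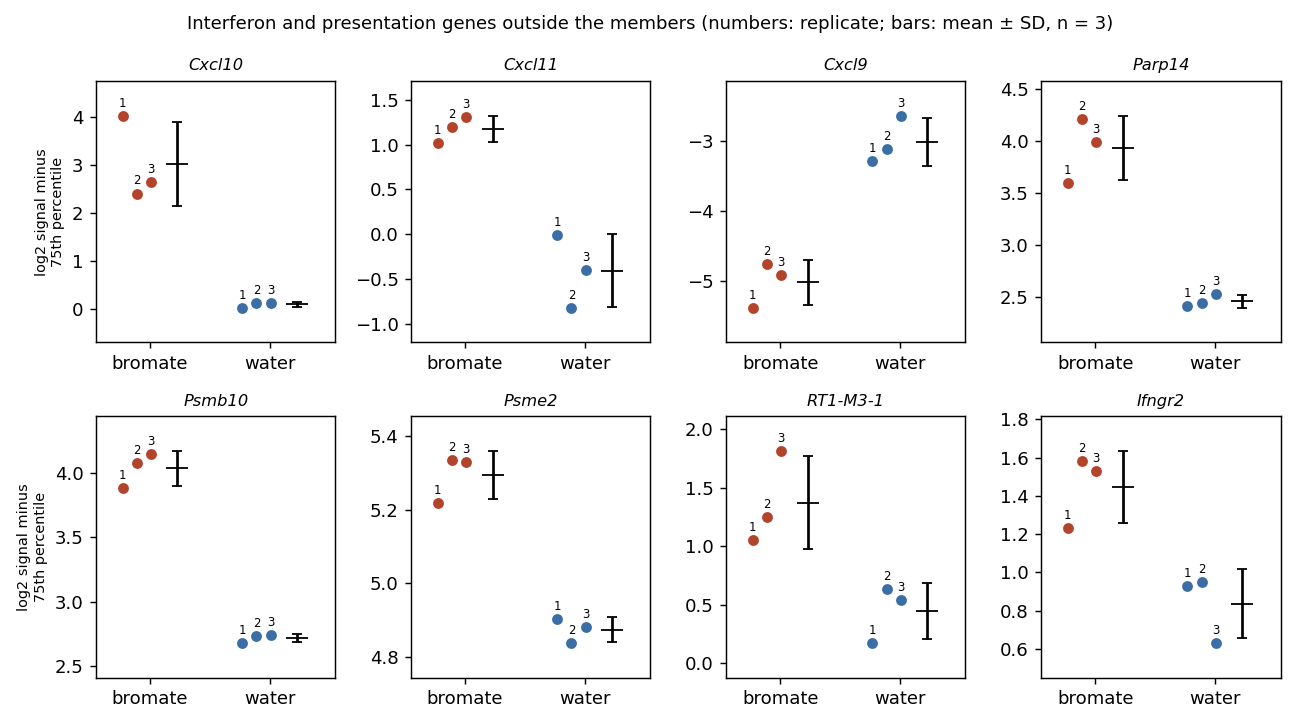
Log2 signal minus the array's 75th percentile for 8 genes outside the list of 37, bromate to the left of water, with numbers for the replicates and bars for mean ± SD (n = 3). Cxcl10, Cxcl11, Parp14, Psmb10, Psme2, RT1-M3-1 and Ifngr2 lie higher on every bromate array, and Cxcl9 lies lower on all of them.

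Markers of cells that could carry this programme were read beside it. Of 17 macrophage and monocyte markers 3 were higher and 0 lower, Lgals3 (galectin-3) by 2.05 ± 0.12, Cd14 by 1.23 ± 0.12 and C1qb by 0.93 ± 0.21 (adjusted p = 0.001139, 0.004359 and 0.03731, limma). At an unadjusted p under 0.05 (limma) 5 were higher and 1 lower, Cx3cr1 (-0.58 ± 0.15, without overlap). Differences were positive for 14 of the 17 and negative for 3, namely Cx3cr1, Adgre1 (-0.49) and Aif1 (-0.19). The mean log2 level of the 17 ranged from 0.56 to 1.21 over bromate arrays and from 0.28 to 0.60 over water arrays, and Cd163, Ccr2 and Marco were below the filter. Lgals3 is also made by injured tubule cells. Of 5 dendritic cell markers 0 passed (0 at an unadjusted p under 0.05, limma; the brightest, Clec10a, differed by 0.57). Of 13 T and NK cell markers 0 passed (3 lower at an unadjusted p under 0.05), 12 had a negative difference, the brightest, Cd3d, differed by -0.18, and their mean level was -3.23 to -2.70 over bromate arrays and -2.58 to -2.49 over water arrays. Xcr1, Zbtb46, Cd28 and Ncr1 were above background on 0 arrays. Of 3 B cell markers 1 was lower (Pax5, -0.92 ± 0.22, adjusted p = 0.04496, limma). Of 4 granulocyte markers 1 was higher (Csf3r, 0.69 ± 0.14, adjusted p = 0.02984, limma). Csf3r was dim, above background on 3 bromate arrays and 1 water array, so the bromate arrays carried it past the filter. The other granulocyte markers did not pass, S100a8 (1.13) and S100a9 (0.97) with positive differences and Camp (-0.21) with a negative one. Of 8 pan-leukocyte markers 0 passed (1 higher at an unadjusted p under 0.05, limma). The brightest, Laptm5, differed by 0.12, and the mean level of the 8 was 0.18 to 0.76 over bromate arrays and 0.27 to 0.59 over water arrays. Of 10 endothelial markers 1 was higher (Esam, 0.43 ± 0.10) and 2 lower (Emcn, -0.63 ± 0.10, and Tie1, -0.58 ± 0.08). All 15 proximal tubule markers were measured, at mean levels of 5.96 to 6.06 over bromate arrays and 6.52 to 6.54 over water arrays. They cannot tell cortex from other parts of the kidney, as no list of medulla genes was read. Of those 15 markers 8 were lower (Kap, -1.61 ± 0.27, Anpep, -0.99 ± 0.18, Slc5a2, -0.92 ± 0.12, and Lrp2, -0.90 ± 0.09, having the largest differences). Of 11 straight tubule markers 0 passed (5 lower at an unadjusted p under 0.05, limma), with 9 negative and 2 positive differences. The brightest, Cyp4a2, differed by -0.31, and Slc7a13 had the largest difference (-3.96 ± 1.38). The mean level of the 11 varied widely among the water arrays, from 2.79 to 4.83, and ran from 2.31 to 2.94 over bromate arrays. Of 8 thick ascending limb and distal tubule markers 7 were lower (Egf, -5.09 ± 0.14, Umod, -2.50 ± 0.39, Calb1, -2.09 ± 0.37, and Slc12a3, -1.88 ± 0.38, first). The part of these cell markers in the values of the interferon and presentation genes was not tested.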

How the data were processed

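Per the labels' protocols, total RNA of 6 rats was labelled with Cy3 for single-colour Agilent arrays. Per the submitters' processing notes the scans went through Agilent Feature Extraction 10.7. The deposited scanner files hold a processed signal, an intensity from which background and spatial trend were removed, with no scaling across arrays, on a design of build rn4, per the file headers. The deposited value table of the authors is a linear ratio that equalled the processed signal over the array's 75th percentile to within 0.198% to 0.372%. The dimmer probes of each array were left out of that check. Its column medians were 0.1025, 0.1054 and 0.1026 for bromate replicates 1 to 3 and 0.1043, 0.1049 and 0.103 for water replicates 1 to 3. It is not centred by gene, and none of this is stated in the labels.

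From these, the 75th percentile of an array was subtracted from its log2 processed signals. Each array had 61537 probes, of which 57.9% to 63.1% were well above background, 0 were saturated and 0 to 4 were outlier spots, which were left out with the 1439 control spots. Probes were named by transcript accession through the RefSeq gene annotation, by which 28206 had 1 symbol (15645 symbols in all) and 33331 had none and stayed unnamed. A probe needed to be well above background on 3 arrays. The brightest probe stood for a gene, giving 27506 genes, 11572 with a symbol. Other probes of a gene were tested one by one and disagreements are given.

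Bromate and water arrays were compared by linear models (limma 3.58.1, functions lmFit and eBayes; R 4.3.3; packages data.table, version 1.17.8, and jsonlite, version 2.0.0), with Benjamini-Hochberg adjustment over all genes and a threshold of 0.05. The code was tested on simulated data. Arrays correlated at 0.988 to 0.991 within bromate, 0.983 to 0.992 within water and 0.966 to 0.978 between groups, across genes. One slide and scan held water replicate 1, another the remaining 5 arrays. The number of arrays limits precision. A probe above background on no array of a group has only a bound there. Promoters are RefSeq's, build GRCr8, and none of the probe positions is given.

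The genes, the wider lists and the marker lists were chosen with earlier results of these data known. Values on every array are given for genes past the threshold, genes with a log2 difference of at least 1 in size and the brightest gene of each role. From each further list up to 4 called genes with the largest difference are named, or the brightest where none was called. Others were named after their values were seen. Of 151 list entries 126 had a named probe and 109 were measured. The settings tried instead were quantile normalization, a percentile over probes detected on all arrays, normexp (offset 50, on median spot intensities) with quantile normalization, the value table, other filters on dim probes, outlier spots kept, mean of probes, single probes, an intensity trend, array weights, slide and replicate blocks, and each array left out.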

Additional observations from a re-analysis of the deposited data

How the results depend on the processing

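Irf1 passed under all 19 alternatives, Tap2 under 18, Isg20 under 13, RT1-DMa under 11 and Ifih1 under 10, always with a positive difference. Slide as a block and water replicate 1 left out are the same fit and are counted as 2 of the 19. The value table, outlier spots kept and single probes used nearly the same values for these genes, and all 34 kept their result. Those settings are close to repeats of the main fit and add little to the counts. With no filter on dim probes 750 genes were higher and 696 lower, and 2 of the 34 genes were higher. With array weights 2757 genes were higher and 3223 lower, and 9 of the 34 were higher and 2 lower (Mx2 and Cd74). The 1 gene lower was Mx2 under a filter on all 6 arrays and under an intensity trend, and Mx1 under the mean of probes. With slide as a block 3 of the 34 were higher. The replicate numbers do not pair the animals (correlations of same-numbered deviations 0.0506, 0.0699 and -0.0953), and with the replicate block 585 genes were higher and 536 lower, and 3 of the 34 higher. With each array left out, 594 to 1495 genes were higher and 530 to 1835 lower, and 2 to 8 of the 34 higher. Genes that never passed and lay near 0 changed sign. Under quantile normalization Ifitm3 was -0.0028. Under normexp Irf3 was 0.071, Ifit3 0.031, Ifitm3 -0.019 and Ciita 0.0058. Under the mean of probes Ifit2 was 0.0034 and Ifi44 0.0074. Under array weights Isg15 was 0.057, Rsad2 0.14 and Ifi44 0.0022. With slide as a block Ifitm3 was -0.042 and Ifi35 -0.074. With each array left out, differences ranged from -0.065 to 0.028 for Irf3, -0.44 to 0.24 for Isg15, -0.48 to 0.034 for Ifit2, -0.28 to 0.16 for Ifit3, -0.12 to 0.12 for Ifitm3, -0.45 to 0.33 for Rsad2, -0.37 to 0.25 for Ifi44, -0.074 to 0.43 for Ifi35 and -0.43 to 0.0045 for Dhx58. The cause was not tested. Irf8, Oasl and Trim21 were not above background on every array and have no value under the filter on all 6 arrays.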
